A study of Mus musculus with 8 samples.

Results

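The genes described here are the mouse vomeronasal type 1 receptor genes (Vmn1r), read through the compartment score of the chromatin around them in mouse embryonic stem cells (mESCs). The family was selected on its score changes after loss of SETDB1, the scores of its chromosome 13 genes being already known to be higher then. Members were the autosomal protein-coding gene records of GENCODE vM21 (mm10) whose symbol begins with Vmn1r, and each took the score of the 100-kb bin that holds its gene start, the lower coordinate. There were 208 such records of 20807 protein-coding autosomal genes, with 207 distinct symbols, since Vmn1r216 is listed as 2 records. One further record on the X chromosome was not scored, and 1 member, Vmn1r207-ps, carries a pseudogene symbol although it is annotated as coding. Of the 208 records, 199 lie in 94 bins that were scored in all 8 libraries, and all counts below refer to these 94 of 23972 bins. The 9 records without a score in every library lie in 7 bins of a single cluster on chromosome 7: Vmn1r130, Vmn1r131 and Vmn1r132 had a score in no library, and Vmn1r135, Vmn1r137, Vmn1r138, Vmn1r139, Vmn1r155 and Vmn1r163 in some. A bin held up to 5 Vmn1r gene starts, and 30 of the bins held 1, so genes of a bin share 1 value and are not separate measurements.

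The scores come from Hi-C, which ligates and counts DNA pieces that lie close together in the nucleus, and each of the 8 groups is represented by 1 deposited set of scores, called a library here. The score is the first eigenvector of a chromosome's contact map. It has no unit, values above 0 stand for the active A compartment and values below 0 for the inactive B compartment, and each chromosome averages 0 in each library, so a value is a position relative to the rest of its chromosome. A chromosome mean appears to have been removed from the values. Its size can be worked out, 0.00165 to 0.00349 by library on chromosome 13, 0.00405 to 0.00595 on chromosome 6 and 0.00843 to 0.0101 on chromosome 7, but its sign cannot, so a score nearer to 0 than this has no sure compartment. A and B below mean the sign of the deposited score, and the calls beyond the removed mean are given beside the main counts. All 4 Setdb1 libraries came from the line #33-6, a Setdb1 conditional KO in which 4-hydroxytamoxifen (4-OHT) removes the H3K9 methyltransferase SETDB1. Setdb1 WT was untreated, Setdb1 WT + UNC received 2 µM UNC0642 (which blocks the H3K9 methyltransferases G9a and GLP) for 3 days, Setdb1 KO received 800 nM 4-OHT for 5 days, and Setdb1 KO + UNC received 800 nM 4-OHT for 2 days followed by UNC0642 at 2 µM for 3 days. The WT libraries of this line received no 4-OHT, so an effect of 4-OHT and the loss of SETDB1 cannot be told apart. The 2 knockout libraries differ in days of 4-OHT as well as in UNC0642, so these cannot be told apart between them. Suv39h WT and Suv39h WT + UNC came from the clone ADF1-26 WT, and Suv39h DKO and Suv39h DKO + UNC from the clone ADF157, which lacks both SUV39H1 and SUV39H2, with UNC0642 again at 2 µM for 3 days. Genotype and clone cannot be told apart between these pairs. Where a set of 8 values is listed, its order is always WT, WT + UNC, KO and KO + UNC of the Setdb1 line and then WT, WT + UNC, DKO and DKO + UNC of the Suv39h clones. The bins of 8 of 8 embryonic stem cell marker genes, Pou5f1, Sox2 and Nanog among them, had scores above 0 in all 8 libraries, as did those of 3 of 6 fibroblast and 1 of 4 neuron markers and 38.9% of all bins. For Klf4 and Zfp42 the score was within the removed mean in at least 1 library, which leaves 6 of the 8 stem cell markers (33.4% of all bins). All bins include those without a coding gene, and no share over bins with a coding gene is given here. These scores describe chromatin, not expression.

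One library stood apart from its line in the Vmn1r bins. Over these 94 bins, the scores of Setdb1 WT + UNC correlated at r = 0.945 with Setdb1 WT. With the 2 knockout libraries of its own line r was 0.911 and 0.915, and with the 4 Suv39h libraries, which are other clones, 0.937 to 0.953. The family was chosen on score changes in the knockout libraries, so its values with those 2 are not an unselected measure. Over all 23972 bins the values lay closer together. They were 0.978 with Setdb1 WT, 0.972 and 0.967 with the knockouts, and 0.973 to 0.978 with the Suv39h libraries. The points share chromosomes and cluster membership, so these correlations are descriptions. Counts and cluster means for SETDB1 loss under UNC0642, which use this library as the control, are therefore given with Setdb1 WT in its place as well. The study describes a second biological repeat of each group and gives read totals and the agreement between repeats, but not which repeat or pool the scores come from. Those totals and repeats were not used here, so a difference between 2 libraries has no replicate check of its own in these values.

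Vomeronasal type 1 receptors are G protein-coupled receptors of the vomeronasal organ, where a sensory neuron of the apical layer expresses a single receptor gene, from 1 of its alleles, and signals through the G protein subunit Gαi2 and the channel TRPC2. They detect small molecules in urine and other secretions that carry information on sex and physiological state. The genes are intronless in their coding part, sit in large tandem arrays rich in LINE-1 repeats, and have expanded strongly in rodents. Outside vomeronasal neurons they are silent, and such arrays lie in heterochromatin in many cell types. H3K9 methylation, the mark written by SETDB1, SUV39H1/2 and G9a/GLP, is typical of that chromatin.

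Promoter windows from RefSeq (GRCm38.p6) were found for 183 of the 207 symbols, each 300 bases long with 250 bases before the annotated start and 50 from it. The windows of Vmn1r197, Vmn1r198, Vmn1r199 and Vmn1r200 are shown because these genes share the chromosome 13 bin with the largest score difference between Setdb1 KO and Setdb1 WT. They lie at chr13:22327661-22327960, chr13:22354096-22354395, chr13:22382288-22382587 and chr13:22394779-22395078, all on the plus strand, and capitals mark the ATG at the annotated start.
Vmn1r197: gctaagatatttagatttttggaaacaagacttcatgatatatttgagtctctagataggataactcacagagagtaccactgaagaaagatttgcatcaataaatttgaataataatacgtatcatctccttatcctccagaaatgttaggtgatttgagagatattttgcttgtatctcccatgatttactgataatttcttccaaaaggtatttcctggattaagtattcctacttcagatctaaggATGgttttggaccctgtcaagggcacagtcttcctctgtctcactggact
Vmn1r198: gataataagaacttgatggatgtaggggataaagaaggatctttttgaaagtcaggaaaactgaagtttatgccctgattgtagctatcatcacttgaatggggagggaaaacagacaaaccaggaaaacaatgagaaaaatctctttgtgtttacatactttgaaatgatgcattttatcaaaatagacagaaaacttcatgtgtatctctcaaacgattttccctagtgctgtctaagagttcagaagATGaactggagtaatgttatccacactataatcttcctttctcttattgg
Vmn1r199: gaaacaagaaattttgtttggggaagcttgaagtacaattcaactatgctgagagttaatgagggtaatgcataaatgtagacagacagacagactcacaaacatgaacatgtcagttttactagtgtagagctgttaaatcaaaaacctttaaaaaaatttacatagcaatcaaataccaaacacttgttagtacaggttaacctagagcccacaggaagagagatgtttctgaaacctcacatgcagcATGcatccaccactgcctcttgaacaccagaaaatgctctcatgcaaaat
Vmn1r200: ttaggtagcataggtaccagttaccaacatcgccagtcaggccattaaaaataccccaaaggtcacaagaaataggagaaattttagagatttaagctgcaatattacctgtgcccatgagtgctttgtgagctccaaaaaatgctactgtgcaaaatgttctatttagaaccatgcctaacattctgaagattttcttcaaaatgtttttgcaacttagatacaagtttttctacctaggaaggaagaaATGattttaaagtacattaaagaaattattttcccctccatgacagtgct
Windows were compared base by base from the annotated start, with no shift or gap, so copies with shifted starts would score low. By this measure these neighbours were not close copies. The most similar other Vmn1r window shared 56.7% of bases with Vmn1r197, 50% with Vmn1r198, 34% with Vmn1r199 and 66.3% with Vmn1r200. Over the 31 windows of the chromosome 13 cluster the median of this best identity was 50%, and 0 windows reached 95%.

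The largest array, on chromosome 7, was of the opposite kind by the same measure. Its 62 windows had a median best identity of 99.7%, with 46 at 95% or more and 30 identical to another window, against 4 and 2 among the 121 windows of all other clusters (median 49.7%). Vmn1r122 (chr7:21134079-21134378, minus strand) and Vmn1r159 (chr7:22843556-22843855, minus strand) are shown as the most alike pair that is not identical. They matched at 299 of 300 bases, and the capital marks the base that differs.
Vmn1r122: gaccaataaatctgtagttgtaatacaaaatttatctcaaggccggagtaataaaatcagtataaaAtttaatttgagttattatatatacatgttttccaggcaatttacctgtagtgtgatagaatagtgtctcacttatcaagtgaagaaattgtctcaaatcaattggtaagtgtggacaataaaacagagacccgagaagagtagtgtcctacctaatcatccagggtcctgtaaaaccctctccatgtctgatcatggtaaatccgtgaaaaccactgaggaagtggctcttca
Vmn1r159: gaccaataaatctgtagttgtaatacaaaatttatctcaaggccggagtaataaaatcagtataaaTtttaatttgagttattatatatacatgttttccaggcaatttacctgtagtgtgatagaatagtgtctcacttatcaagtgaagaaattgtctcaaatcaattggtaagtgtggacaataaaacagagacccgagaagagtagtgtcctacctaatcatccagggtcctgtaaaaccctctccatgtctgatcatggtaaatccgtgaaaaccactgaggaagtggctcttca
How reads from such copies were placed was not examined.

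As a family the windows were poor in GC and CpG. The median GC content was 36% against 53% over all 31396 windows, the median number of CpG was 1 against 7, and 44 of 183 windows held no CpG, against 5.25% of all. In 158 windows (86.3%, all windows 5.47%) the annotated start coincided with an ATG, so for these the annotation begins at the coding sequence and the window may not hold the transcription start. Searched on both strands, TATAAA was in 81 windows (44.3%, all windows 13.6%) and in 8 of 31 in the chromosome 13 cluster. TAATTA, the core of homeodomain sites, was in 15 (8.2%, all windows 5.27%) and in 0 of 31 there. The palindrome bound by EBF factors was in 0 windows (all windows 0.92%). TATAAA and TAATTA can overlap in sequence, and a match or its absence describes only these letters in this window.

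The Vmn1r genes fell into 13 clusters at gaps of up to 1 Mb, of which 10 held 2 or more genes (205 records) and 3 were a gene alone. They are named here by chromosome and a letter. Cluster 6a (Vmn1r4 to Vmn1r31, chr6:56924015-58475330, 28 genes in 12 scored bins), 6b (Vmn1r32 to Vmn1r39, 8 genes in 4) and 6c (Vmn1r40 to Vmn1r54, chr6:89707540-90271213, 15 genes in 6) lie on chromosome 6. On chromosome 7 lie 7a (Vmn1r55 to Vmn1r65, 11 genes in 7 bins), 7b (Vmn1r66 to Vmn1r89, 24 in 16), 7c (Vmn1r90 alone), 7d (Vmn1r91 to Vmn1r183, chr7:20099680-24063554, 65 in 24) and 7e (Vmn1r184 and Vmn1r185, in 2 bins). Cluster 13a (Vmn1r188 to Vmn1r223, chr13:22084440-23253906) holds 36 genes in 12 bins, 17a (Vmn1r224 to Vmn1r237) 14 genes in 7 bins, and 4a holds Vmn1r2 and Vmn1r3 in 1 bin. Vmn1r1 (1a) and Vmn1r238 (18a) stand alone. With gaps of up to 500 kb there were 15 clusters.

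Most Vmn1r bins were in the B compartment, but the share in A differed between libraries. In the Setdb1 line the A share was 19.1% in WT (95% Wilson interval 12.5 to 28.3%), 7.45% in WT + UNC, 27.7% in KO (19.6 to 37.4%) and 29.8% in KO + UNC (21.5 to 39.7%). In the Suv39h clones it was 9.57%, 8.51%, 9.57% and 7.45%, in the order given. Neighbouring bins are not independent and the intervals cover the number of bins alone. Over all bins the A share was 44.5 to 46.3%, so every library held fewer Vmn1r bins in A than bins in general. These shares rest on the removed mean: with it added they were 37.2, 27.7, 45.7 and 44.7% in the Setdb1 libraries and 22.3 to 31.9% in the Suv39h libraries (all bins 50.97 to 54.6%), and with it subtracted 3.19 to 19.1% (all bins 38.5 to 40.3%). In all 8 libraries 64 bins (68.1%) were in B and 6 (6.38%) in A, where 48.0% and 38.9% of all bins were. Beyond the removed mean in every library, 44 were in B and 3 in A (46.8 and 3.19%, all bins 39.9 and 33.4%). Of the 24 that differed between libraries (25.5%, all bins 13%), 19 were in A only in Setdb1 libraries (20.2%, all bins 2.34%) and 0 only in Suv39h libraries (3.09%). Of the 19, 9 were beyond the removed mean in this pattern. The Setdb1 KO and Setdb1 KO + UNC values are those for which the family was chosen and are given as a description.

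The 6 bins with scores above 0 throughout all hold further coding genes: Vmn1r1 shares its bin with Srp9, Vmn1r55 and Vmn1r56 with Rfpl4 and Rasl2-9, Vmn1r85 and Vmn1r86 with Zbtb45, Chmp2a, Ube2m and Mzf1, Vmn1r89 with Zswim9 and Lig1, Vmn1r183 with V1rd19 and Zfp180, and Vmn1r188 and Vmn1r189 with the protease gene Prss16 and 5 histone genes. Those of Vmn1r1, Vmn1r85 and Vmn1r188 were beyond the removed mean in every library, while those of Vmn1r55, Vmn1r89 and Vmn1r183, on chromosome 7, were so in 4, 1 and 2 libraries. V1rd19, and V1ra8 in the bin of Vmn1r53 and Vmn1r54, have symbols that begin with V1r. The prefix rule left such genes out of the family and counted them as other coding genes. Of the 30 Vmn1r bins with another coding gene, 6 to 10 were in A in each library. Of the 64 without one, 10, 1, 17 and 18 were in A in the Setdb1 libraries and 0 to 2 in the Suv39h libraries. The median score ranged alike over the libraries in both kinds, from -0.0149 to -0.00850 in the bins without another gene and from -0.0147 to -0.00791 in the others.

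Cluster means, with each bin counted once, ranged from strongly negative to positive. Vmn1r1, at the head of the order, had 0.0285 to 0.0359. Cluster 7d was lowest at -0.0422 to -0.0363, followed by 6a at -0.0270 to -0.0243 and 17a at -0.0254 to -0.0185. The means of these 3 arrays were in B in every library, although 1 or 2 bins of 7d were in A in each. The order after 7d is not fixed. The ranges of 6a and 17a overlap, and 6b was below 17a in Suv39h WT (-0.0224 against -0.0185) and Suv39h DKO (-0.0226 against -0.0208). Clusters 7a (-0.00563 to -0.00085) and 7b (-0.00557 to -0.00100) lay just under 0 and overlap each other too, and both are within the mean removed from chromosome 7, so that their compartment is not settled. Cluster 6b had -0.0232 to -0.00874, 6c -0.0159 to -0.00299, 4a -0.0200 to -0.00928 and 7c -0.0166 to -0.00146. The means of 7e, 13a and 18a crossed 0 between libraries.

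**Figure D1:**
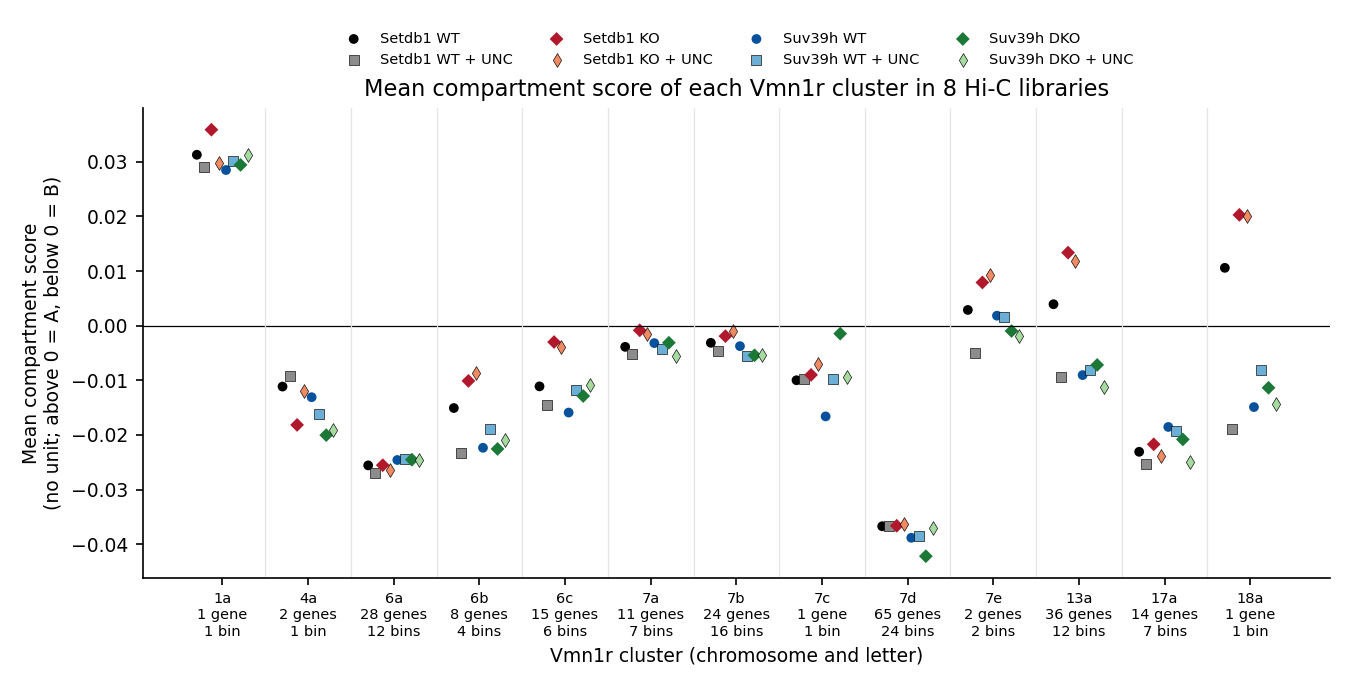
Mean compartment score (y axis, no unit, above 0 for A and below 0 for B) of each of the 13 Vmn1r clusters (x axis, chromosome and letter, with the number of genes and scored bins), 1 point for each of the 8 libraries and no error bars, since a group is 1 library. In cluster 13a the Setdb1 KO and Setdb1 KO + UNC points sit at 0.0134 and 0.0119 while the 4 Suv39h points sit between -0.0112 and -0.00719; in 6a all 8 points lie between -0.0270 and -0.0243.

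Cluster 13a had mean scores on both sides of 0. They were 0.00393, -0.00947, 0.0134 and 0.0119 in the Setdb1 libraries and -0.00905, -0.00812, -0.00719 and -0.0112 in the Suv39h libraries. Both knockout libraries were high, Setdb1 WT was in between, and Setdb1 WT + UNC fell within the range of the 4 Suv39h libraries. Of its 12 bins, 6, 1, 12 and 12 were in A in the Setdb1 libraries, and 1 or 2 in each Suv39h library. The first bin, with the histone genes, was in A in all 8.

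The array sits in a stretch of A chromatin with histone, zinc finger, butyrophilin and odorant receptor genes. The 20 bins within 1 Mb that hold no Vmn1r gene start had mean scores of 0.0319, 0.0232, 0.0323 and 0.0345 in the Setdb1 libraries and 0.0211 to 0.0234 in the Suv39h libraries. The flanks were thus above the cluster in every library, and lower in Setdb1 WT + UNC and in the Suv39h libraries than in the other 3. A single bin inside the array (chr13:22900001-23000000), with no coding gene start, was in B in all 8 libraries, with scores from -0.0515 to -0.0241 and only 13% of its sampled 32-mers found once in the genome.

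**Figure D2:**
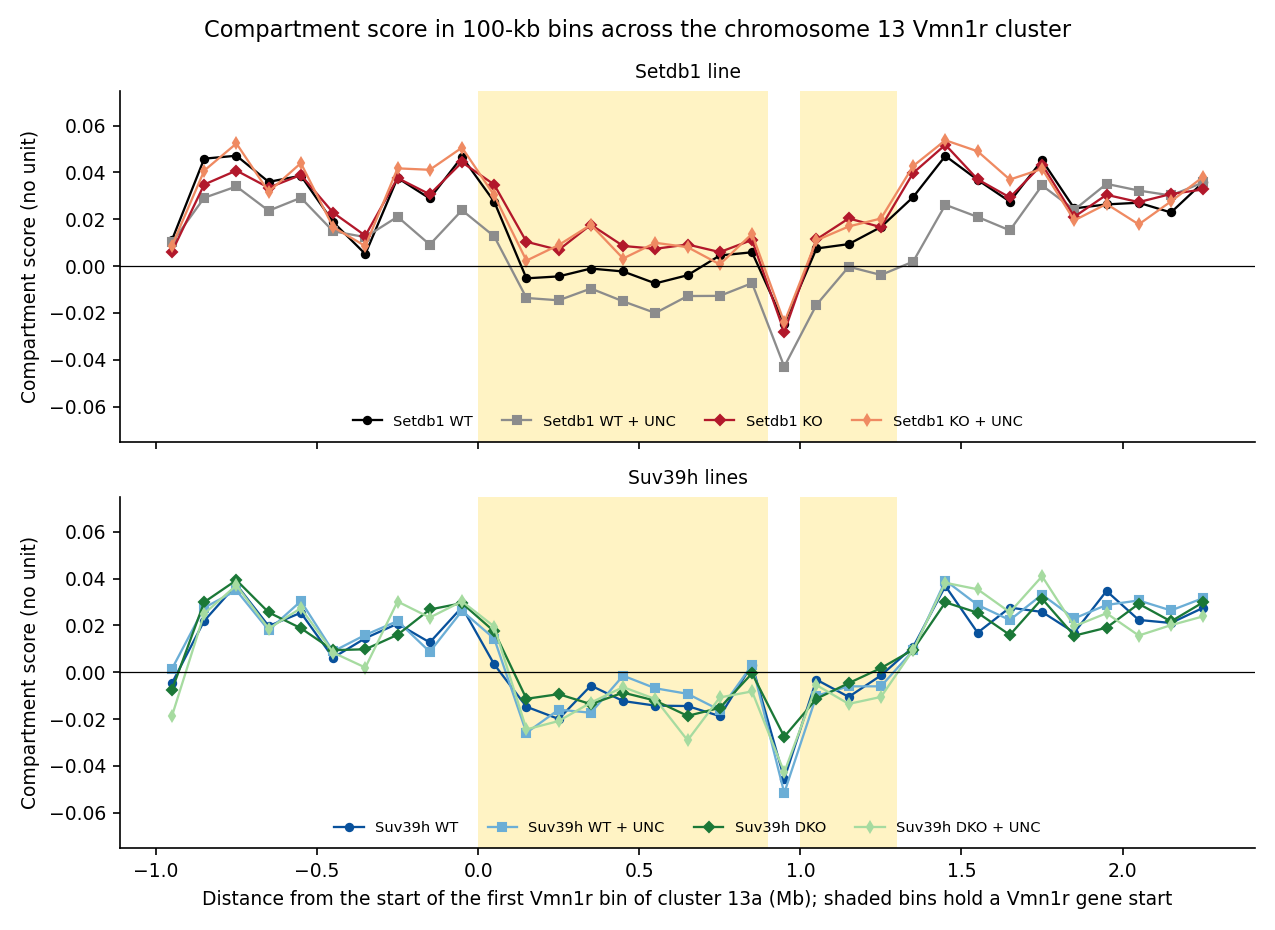
Compartment score (y axis, no unit) of 100-kb bins against the distance from the start of the first Vmn1r bin of cluster 13a (x axis, Mb), 1 line per library, the Setdb1 line above and the Suv39h clones below, with bins that hold a Vmn1r gene start shaded. All 12 shaded bins are above 0 in both SETDB1 knockout libraries, 6 are in Setdb1 WT, and 1 or 2 are in each Suv39h library.

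Loss of SETDB1 was the contrast with which the family was chosen, so its values are described and not tested. Between Setdb1 KO and Setdb1 WT, 9 Vmn1r bins were higher by at least 0.01 and 0 lower, with 1.40% and 0.880% of all bins up and down. Between Setdb1 KO + UNC and Setdb1 WT + UNC, 24 were higher and 1 lower (all bins 7.16% and 5.79%), but against Setdb1 WT 6 were higher and 0 lower (1.46% and 1.18%). The count under UNC0642 was thus smaller without the library that stands apart. Into A moved 9 bins without UNC0642 (1.71% of all bins) and 21 with it (3.14%), or 11 against Setdb1 WT (1.87%). Into B moved 1 bin (1.51%) and 0 (3.20%), or 1 against Setdb1 WT (1.71%). Where the control score was at least 0.005 from 0, 2 bins moved into A and 0 into B without UNC0642. The largest falls were -0.00767 at Vmn1r93 to Vmn1r95 without UNC0642 and -0.0131 at Vmn1r111 to Vmn1r113 with it, both in 7d. Median differences over the 94 bins were 0.00192 and 0.00370, or 0.00190 for Setdb1 KO + UNC against Setdb1 WT, beside -0.000122 and -0.000425 over all bins in the first 2 of these.

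In both pairs 9 bins (9.57%) were higher by at least 0.01 and 0 lower (all bins 0.567% and 0.129%). Less the mean of the flanks there were 4, and 0 at a difference of 0.02. Of the 97 Vmn2r bins 1 was higher to that extent in both pairs, and of the 334 Olfr bins 6. When Setdb1 WT served for both knockouts there were 4 (all bins 0.425%), all in 13a, those that begin with Vmn1r193, Vmn1r197, Vmn1r203 and Vmn1r206. The 9 bins hold 26 Vmn1r genes and no other coding gene start. They lie in cluster 13a (7 of its 12 bins, 20 genes) and in 6c (2 of 6 bins, 6 genes). Among bins in which at least 50% of sampled 32-mers occur once in the genome, 7 of 62 Vmn1r bins (11.3%) and 0.495% of all bins were higher to that extent in both pairs. Around the threshold, the member just inside was the Vmn1r201 and Vmn1r202 bin, with 0.0109 in the first pair, and Vmn1r238, just outside, had 0.00970.

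The bin of Vmn1r197 to Vmn1r200 (chr13:22300001-22400000), whose windows are shown above, had scores of -0.00105, -0.00959, 0.0177 and 0.0177 in the Setdb1 libraries and of -0.00570, -0.0173, -0.0136 and -0.0130 in the Suv39h libraries. It was above 0 in the knockout libraries alone, and the other 6 did not overlap with them, although the Setdb1 WT score is within the removed mean and has no sure compartment. The differences were 0.0187 without and 0.0272 with UNC0642.

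The bin of Vmn1r203 to Vmn1r205 (chr13:22500001-22600000) had -0.00739, -0.0200, 0.00739 and 0.00994 in the Setdb1 libraries, and -0.0143, -0.00685, -0.0121 and -0.0115 in the Suv39h libraries. The sign again changed in the knockout libraries alone, with differences of 0.0148 and 0.0300. The bin of Vmn1r191 and Vmn1r192 had -0.00524, -0.0136, 0.0104 and 0.00233, and -0.0147, -0.0258, -0.0113 and -0.0244, so that its score under knockout with UNC0642 was only just above 0 and within the removed mean. In this bin 49% of the sampled 32-mers occurred once, against 77.5% in the Vmn1r197 bin.

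The bin of Vmn1r217 to Vmn1r220 was in A in Setdb1 WT already, with 0.00938, -0.000285, 0.0204 and 0.0169 in the Setdb1 libraries and -0.0105, -0.00602, -0.00465 and -0.0135 in the Suv39h libraries. It was higher in the knockouts, within A. The remaining 3 of the 13a bins (Vmn1r193 to Vmn1r196, Vmn1r201 and Vmn1r202, and Vmn1r206 alone) had Setdb1 WT scores from -0.00441 to -0.00231 and knockout scores from 0.00323 to 0.00921. Over all bins, 91 (0.380%) were in A in both knockout libraries and in B in the other 6, of which 8 were Vmn1r bins. Of these 8, 6 lie in 13a and the others hold Vmn1r32 in 6b and Vmn1r74 with Vmn1r75 in 7b. In 3 of the 8, those of 13a that begin with Vmn1r193, Vmn1r203 and Vmn1r206, all 8 scores were beyond the removed mean (5 of all bins, 0.0209%), while in the other 5 at least 1 was within it.

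In cluster 6c the bin of Vmn1r42 to Vmn1r44 (chr6:89800001-89900000) had 0.00150, -0.0114, 0.0149 and 0.00951 in the Setdb1 libraries, and -0.0124, -0.00634, -0.0118 and -0.00504 in the Suv39h libraries. Setdb1 WT was within the removed mean, and the knockouts were higher and beyond it. The bin of Vmn1r47 to Vmn1r49 had -0.0152, -0.0185, -0.00385 and -0.00716, and -0.0179, -0.0188, -0.0123 and -0.0121. It was less negative in the knockout libraries and stayed below 0 in all 8, though in Setdb1 KO within the removed mean.

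By cluster, 13a differed by 0.00944 without UNC0642 (SD over its 12 bins 0.00589, 11 of 12 higher) and 0.0214 with it (12 of 12 higher by at least 0.01), while its flanks differed by 0.00038 and 0.0113. Against Setdb1 WT the difference of Setdb1 KO + UNC in 13a was 0.00800, with 4 of 12 bins higher by at least 0.01 and the flanks at 0.00256. The 6c mean differed by 0.00812 and 0.0105 (0.00718 against Setdb1 WT), and its flanks by 0.00309 and -0.00515. The differences were 0.00496 and 0.0145 in 6b (0.00634 against Setdb1 WT), with its flanks at 0.000644 and 0.00612. In 7e they were 0.00503 and 0.0141 (0.00631), with its flanks at 0.000967 and 0.00737. The largest array, 7d, differed by 0.00009 and 0.00029.

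Vmn1r238, alone on chromosome 18, had scores of 0.0106, -0.0190, 0.0203 and 0.0201 in the Setdb1 libraries and -0.0149, -0.00812, -0.0114 and -0.0144 in the Suv39h libraries. Within the Setdb1 line WT + UNC was the library in B, and the Suv39h libraries were in B too. Its differences of 0.00970 and 0.0391 (0.00950 against Setdb1 WT) stood beside flank differences of 0.00625 and 0.0197, so its surroundings differed in the same direction. In this bin 40% of sampled 32-mers occurred once. Of the 13 clusters, 12 were higher in both pairs, 9 when Setdb1 WT served for both knockouts, and 4a was lower (-0.00702 and -0.00269). No cluster mean reached 0.01 in both pairs. Over bins, 48 of 94 (51.1%) were higher by any size in both pairs (25.0% of all bins, 41.2% of Vmn2r and 44.9% of Olfr bins) and 12 were lower.

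**Figure D3:**
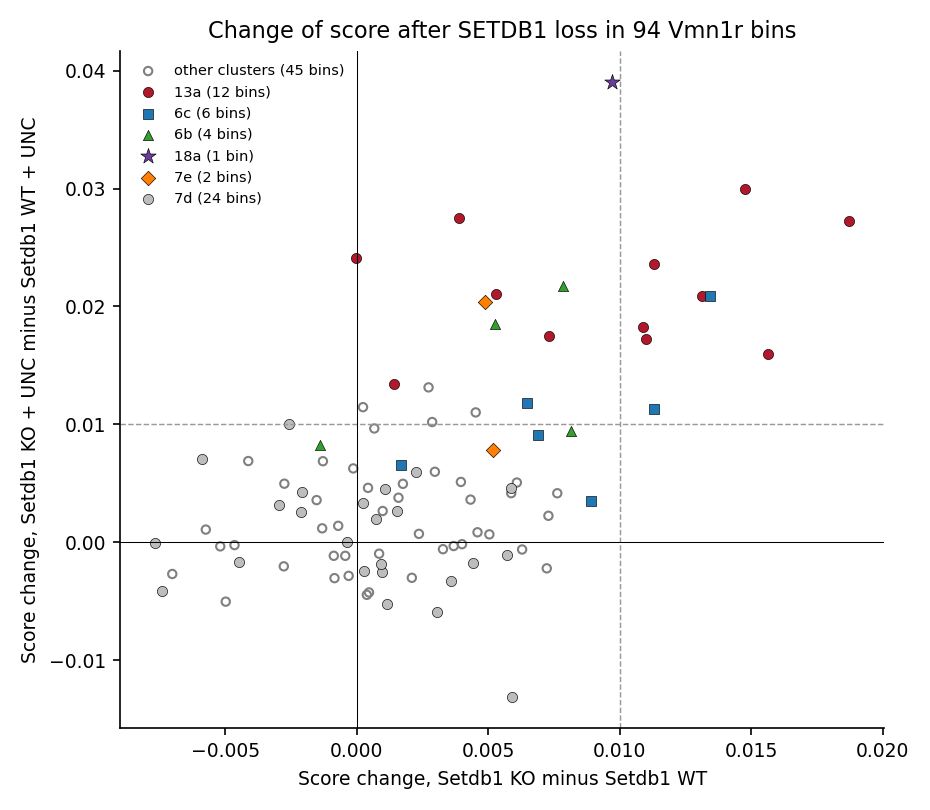
Score difference of each of the 94 Vmn1r bins after SETDB1 loss, without UNC0642 (x axis, Setdb1 KO minus Setdb1 WT) and with it (y axis, Setdb1 KO + UNC minus Setdb1 WT + UNC), coloured by cluster, with dashed lines at 0.01. The 9 bins past both lines are 7 of cluster 13a and 2 of 6c, the star is Vmn1r238 at 0.00970 and 0.0391, and the 24 bins of 7d lie around 0.

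UNC0642 was the comparison with most libraries, 4 with and 4 without, 1 pair in each of 4 backgrounds. The Setdb1 KO pair also differs in 4-OHT, given for 5 days without and 2 days with UNC0642. In limma fitted to all 23972 bins with background as a block, 0 of 94 Vmn1r bins passed an adjusted p of 0.05 and the lowest adjusted p was 0.859. Over all bins 0% passed. At an unadjusted p under 0.05 there were 6 Vmn1r bins, 2 higher and 4 lower, where 4.95% of all bins reached it. The median SE of the UNC0642 difference in a Vmn1r bin was 0.00221, so differences of a few thousandths could not be resolved in these data. The lowest p was that of the Vmn1r191 and Vmn1r192 bin of 13a, with a difference of -0.0102 (SE 0.00192, limma adjusted p = 0.859). Its scores, given above, were lower with UNC0642 in 4 of 4 pairs. This fit, and those for SUV39H1/2 and line below, includes the Setdb1 libraries that were in view when the family was chosen.

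The counts differed between the 4 pairs. In Setdb1 WT, 1 bin was higher with UNC0642 by at least 0.01 and 11 were lower (all bins 3.51% and 4.62%), with 0 bins moving into A (2.67%) and 11 into B (2.45%). Less the flanks 4 bins were lower, and where the control score was at least 0.005 from 0, 6 moved into B. Cluster 13a differed by -0.0134, with 12 of 12 bins lower, beside -0.00877 in its flanks. Vmn1r238 differed by -0.0296, the largest fall, beside -0.0156 in its flanks. The largest rise, 0.0192, was that of the bin of Vmn1r111 to Vmn1r113 in 7d, where 6% of 32-mers occurred once. This is the pair that holds the library standing apart. In Setdb1 KO, where the days of 4-OHT differ too, 0 bins were higher and 0 lower (0.755% and 0.934%), and 13a differed by -0.00144. There the widest differences were 0.00735 at Vmn1r183 and -0.00911 at Vmn1r224 and Vmn1r225.

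In the Suv39h clones the UNC0642 differences went both ways. In Suv39h WT 6 bins were higher and 5 lower (2.26% and 2.53%), and in Suv39h DKO 11 higher and 7 lower (3.04% and 3.69%). Neither balance was stable. In Suv39h WT it was even after quantile normalization (5 and 5) and less the flanks (4 and 4), and in Suv39h DKO it turned to 2 higher and 5 lower after quantile normalization, 8 and 11 less the flanks and 11 and 12 with the removed mean subtracted. Cluster 13a differed by 0.000931 and -0.00398. The bins with the widest differences were in 7d: Vmn1r152, at -0.0246 in Suv39h WT, and Vmn1r118, at 0.0213 in Suv39h DKO, lie in bins where 0% and 3.5% of 32-mers occurred once. At the other ends stood the bin of Vmn1r119 to Vmn1r121 with 0.0156 and that of Vmn1r114 to Vmn1r117 with -0.0149, in 7d as well. Over the 13 clusters 1 was higher in all 4 pairs and 2 were lower in all 4.

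For the loss of SUV39H1/2, limma called 0 of 94 Vmn1r bins (lowest adjusted p = 0.339) and 0% of all bins. At an unadjusted p under 0.05 there were 8, 4 higher and 4 lower, with 9.60% of all bins there, and the median SE was 0.00312. The lowest p belonged to the bin of Vmn1r122 in 7d, one of the near-identical pair shown above, with -0.0192 (SE 0.00348, limma adjusted p = 0.339). Between Suv39h DKO and Suv39h WT 7 bins were higher and 3 lower by at least 0.01 (3.64% and 3.73%), and under UNC0642 4 were higher and 6 lower (2.98% and 3.86%), or 4 and 3 with the removed mean added. At a difference of 0.02 there were 0 higher and 2 lower without UNC0642, beside 25 and 44 of all 23972 bins. Vmn1r90, alone in 7c, had the largest rise, from -0.0166 in Suv39h WT to -0.00146 in Suv39h DKO. Under UNC0642 its scores were -0.00972 and -0.00935, so the rise was not seen in the second pair. Vmn1r152 had the largest fall, from -0.0356 to -0.0695, but under UNC0642 it was higher in the DKO, at -0.0487 against -0.0602 (limma over both pairs -0.0112, SE 0.00757, adjusted p = 0.671). The other 7 libraries lay between -0.0695 and -0.0487 in this bin, where 0% of 32-mers occurred once, so its widest differences in the UNC0642, SUV39H1/2 and line comparisons all share the high Suv39h WT value. Under UNC0642 the widest differences were 0.0194 at Vmn1r157 and Vmn1r158 and -0.0199 at Vmn1r206. Cluster 13a differed by 0.00186 and -0.00306, and of the 13 clusters 3 were higher and 4 lower in both pairs.

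The untreated WT cells of the separately derived lines differed from each other as well. Between Suv39h WT and Setdb1 WT 4 bins were higher and 13 lower by at least 0.01 (5.68% and 6.27% of all bins), with 1 moving into A (2.94%) and 10 into B (2.59%). Less the flanks 8 were higher and 5 lower, so the balance turned. Where the control score was at least 0.005 from 0, 0 bins moved into A and 4 into B. Cluster 13a differed by -0.0130 beside -0.0108 in its flanks, Vmn1r238 by -0.0255, the largest fall, beside -0.0117 in its flanks, and the largest rise was that of Vmn1r152, from -0.0556 to -0.0356, the Suv39h WT value that stands apart in this bin. Since Setdb1 WT is the control here and in the SETDB1 contrast, the 2 sets of differences share a library. In limma, with 2 libraries of each line, 0 of 94 Vmn1r bins passed (lowest adjusted p = 0.114) while 0.363% of all bins did. At an unadjusted p under 0.05 there were 14, 5 higher and 9 lower in Suv39h WT, with 13.5% of all bins there. The lowest p was that of the Vmn1r226 bin of 17a, with 0.0120 (SE 0.00278, limma adjusted p = 0.114).

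Leaving out Setdb1 WT + UNC changed the line result. The limma fit then called 2 Vmn1r bins among 0.701% of all bins. The bin of Vmn1r207-ps and Vmn1r208 in 13a differed by -0.0223 in Suv39h WT (SE 0.00395, limma adjusted p = 0.0462), and that of Vmn1r238 by -0.0227 (SE 0.00393, limma adjusted p = 0.0451). Setdb1 WT is then the only library of the WT group of its line and is assumed to vary like the others. The UNC0642 and SUV39H1/2 tests still called 0.

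Vmn2r genes, the type 2 receptors of the basal layer of the vomeronasal organ, and Olfr genes, the odorant receptors of the main olfactory epithelium, are the gene arrays most like Vmn1r. The A share was 1.03 to 7.22% over 97 Vmn2r bins and 16.2 to 21.3% over 334 Olfr bins, while that of Vmn1r went from 7.45 to 29.8%. From Setdb1 WT to Setdb1 KO, 2 Vmn2r bins were higher by at least 0.01 and 1 lower, and 8 Olfr bins were higher and 2 lower. Between Setdb1 KO + UNC and Setdb1 WT + UNC, 18 Vmn2r bins (18.6%) were higher and 2 lower and 57 Olfr bins (17.1%) were higher and 1 lower, beside 25.5% of Vmn1r bins higher. In that pair all 3 families stood above the 7.16% of all bins. Against Setdb1 WT, 6.38% of Vmn1r, 5.15% of Vmn2r and 2.10% of Olfr bins were higher. In Setdb1 WT with UNC0642, 9 Vmn2r bins and 41 Olfr bins were lower and 3 and 1 higher. In all 3 families more bins were lower than higher in Setdb1 WT + UNC. Differences between the families were not tested.

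**Figure D4:**
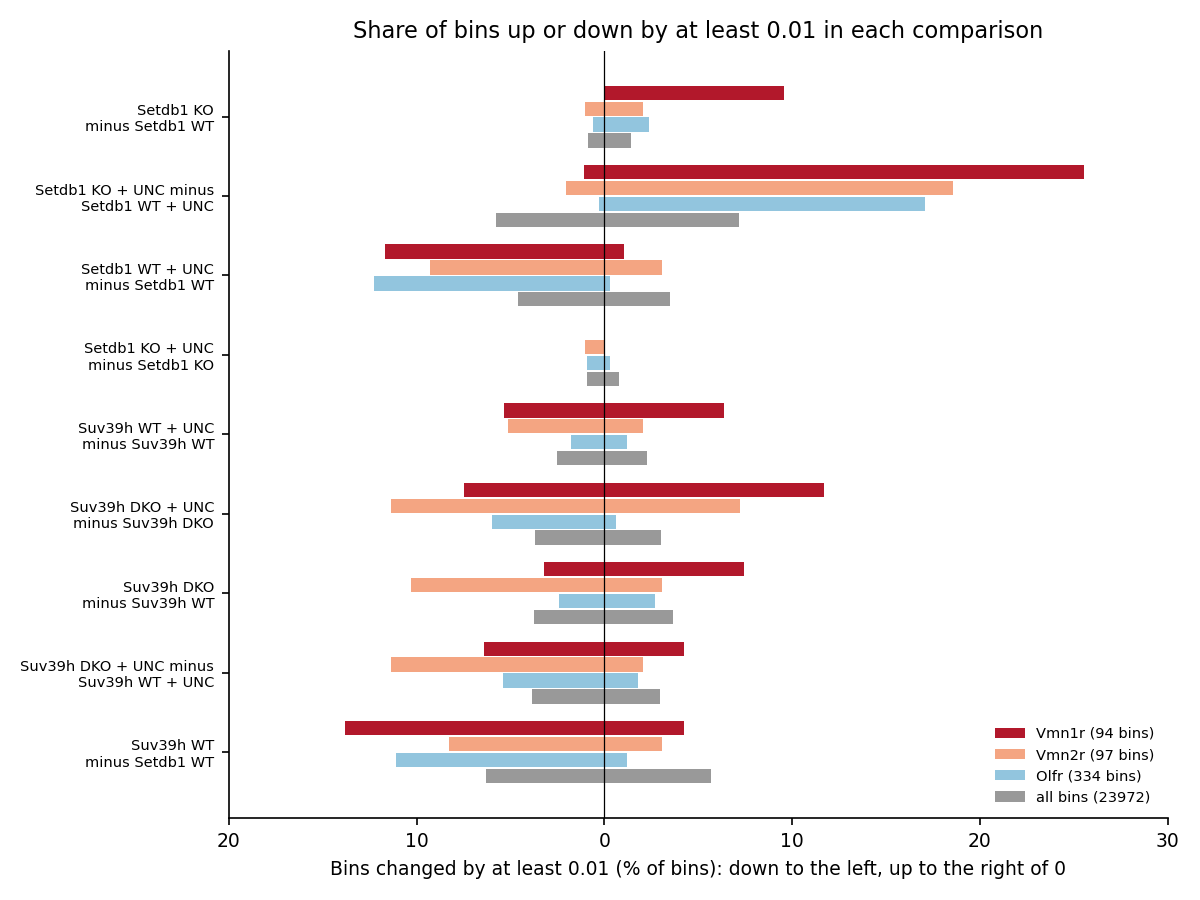
Share of bins (x axis, %) whose score differed by at least 0.01, lower to the left and higher to the right of 0, in 9 comparisons of 2 libraries each, for Vmn1r, Vmn2r, Olfr and all bins. In Setdb1 KO minus Setdb1 WT the Vmn1r bar reaches 9.57% to the right with none to the left, all bins reaching 1.40% and 0.880%; no bar has an error, since each library is 1 sample.

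The scores of cluster 7d need their sequence beside them. From each bin 200 stretches of 32 bases were sampled and counted in the genome. Over Vmn1r bins a median of 60.8% occurred once, against 88.5% over all bins, and the 7 Vmn1r bins without a score in every library had 0 to 1%. In 32 of 94 Vmn1r bins (3.18% of all bins) fewer than 50% occurred once. Repeats covered a median of 55.5% of a Vmn1r bin, against 31.7% of all bins, and GC was 40.1% against 41.4%. Cluster 13a, at a median of 65.8%, was not among the extremes.

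Cluster 7d fell into parts of unlike score. Its 17 scored bins from Vmn1r93 to Vmn1r166 (39 genes) had 0 to 10.5% of 32-mers found once and scores from -0.0699 to -0.0293. The 6 bins from Vmn1r167 to Vmn1r183 (16 genes) had 40 to 78% and scores from -0.0255 to 0.0139. The remaining bin, that of Vmn1r91, had 44.5%. In each library 5 to 8 of the 24 bins lay within 0.002 of the lowest score of chromosome 7. Bins with such low uniqueness had low scores outside the family too: of the 216 other bins under 11%, 99.1% were in B in all 8 libraries with a median score of -0.0530, against 47.9% of the 23878 bins outside the family in general. The part of read placement in the strongly negative scores of 7d was not tested.

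**Figure D5:**
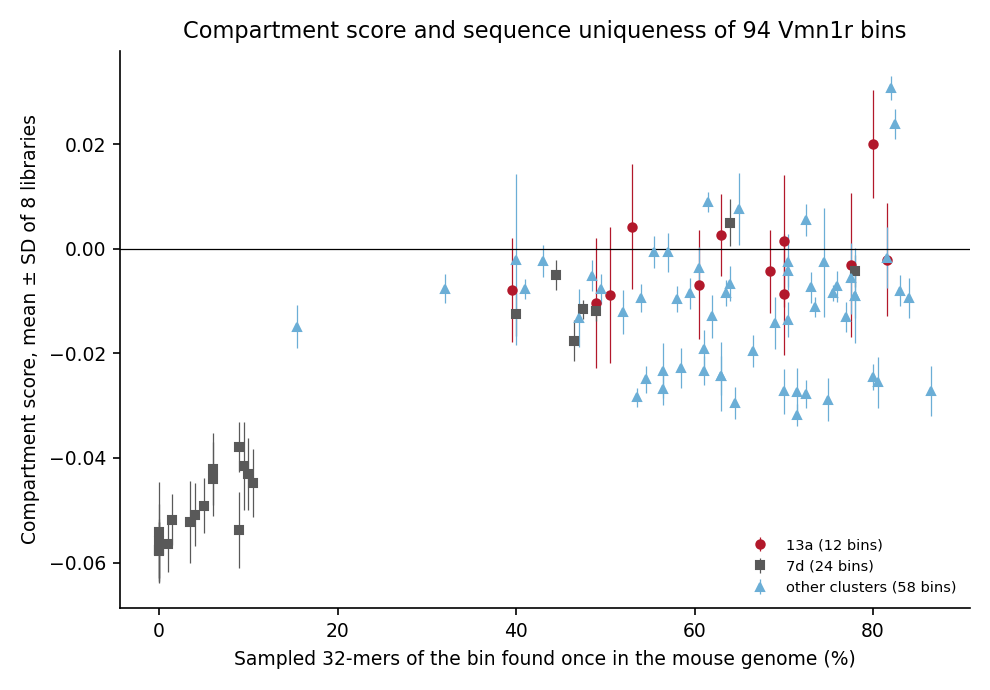
Compartment score of each of the 94 Vmn1r bins (y axis, mean of 8 libraries, bars show the SD over the 8) against the share of its sampled 32-mers found once in the mouse genome (x axis, %), by cluster. The 17 bins of 7d at 0 to 10.5% are the lowest of the family, and the 12 bins of 13a lie between 39.5 and 81.5% with wide bars. A bar is the SD and not the full range of the libraries.

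The genes that act with or upstream of the receptors mostly had scores above 0. Of a list of 14 genes of vomeronasal signalling and neuron identity, 12 were above 0 in all 8 libraries (38.9% of all bins), 10 of them beyond the removed mean in each (33.4%), and 2 below 0 in all 8. All bins include those without a coding gene, and no share over bins with a coding gene is given here. In both SETDB1 pairs 0 of the 14 genes were higher by at least 0.01, which with 0.567% of all bins doing so sets the list apart in no way. Trpc2, the transduction channel, scored 0.0332 to 0.0390, Gnai2, which encodes Gαi2, 0.0407 to 0.0538, and Omp, a marker of mature olfactory and vomeronasal neurons, 0.0280 to 0.0332. Gnao1, the G protein subunit of the Vmn2r neurons, Gng8, Plcb2, the chloride channels Ano1 and Ano2, and the transcription factors Tfap2e, Bcl11b, Lhx2 and Emx2 were above 0 as well, Gnao1 and Emx2 within the removed mean in at least 1 library. Emx2 had the lowest single score among these, 0.000737 in Suv39h WT. The transcription factor genes Meis2 (-0.0183 to -0.00886) and Ebf1 (-0.0153 to -0.00437) were the 2 below 0, also within the removed mean in at least 1 library.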

How the data were processed

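Hi-C was done by the authors with biological repeats in 8 groups of mESCs, and the 8 deposited score files, 1 per group, are called libraries here. The authors cut chromatin with DpnII, sequenced paired ends, aligned reads to mm10 with the 4D Nucleome pipeline (mapping quality above 10) and took the first eigenvector of each KR-normalised map in 100-kb bins with Juicer Tools. The score values deposited by the authors were used as they are. Whether a file holds 1 repeat or a pool is not given in the sources used here. The score files hold no read counts, and the read totals that the study gives for each repeat were not used, so no interval from depth is given.

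Of 24005 bins, the 23972 scored in all 8 libraries were used. Differences of at least 0.01 and changes of sign were counted without a test. limma 3.58.1 in R 4.3.3 tested UNC0642, SUV39H1/2 and line on all bins (background as a block, Benjamini-Hochberg at 0.05), with 3 residual degrees of freedom and 7.24 from the prior, and was tested on simulated data. With 1 library per group, p-values measure the spread between these libraries.

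The members and lists were chosen with earlier results of these data known. Named were the ends of each cluster, genes alone, the bins with the largest rise and fall by contrast, the genes of any cluster changed by 0.01 in both pairs of a knockout (none) and the vomeronasal list. The bins that rose in both SETDB1 pairs, those in A in all libraries or in both knockouts alone, and those with the lowest limma p were named after their values were seen. Alternatives covered scaling, quantile normalization, the removed chromosome mean, thresholds, flanks, start position and left-out libraries. Protein sequences were not used here.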

Additional observations from a re-analysis of the deposited data

Results flagged for a closer look

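In 2 clusters the UNC0642 difference had opposite signs in the Setdb1 line and the Suv39h clones in every pair. Cluster 1a (Vmn1r1) differed by -0.00228 in Setdb1 WT and -0.00603 in Setdb1 KO, but by 0.00167 in Suv39h WT and 0.00186 in Suv39h DKO. Cluster 6c (Vmn1r40 to Vmn1r54) differed by -0.00334 and -0.000935 in the Setdb1 line and by 0.00404 and 0.00201 in the Suv39h clones. The difference between lines was not tested, and 13 clusters were looked at.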

How the results depend on the processing

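Of 268 alternative values for 50 results, 212 stayed within 1.5 times the count or within the interval of the share as reported and 56 moved. Which of higher and lower bins were more was kept in 45 of 63 alternatives for 9 comparisons, even in 4 and turned in 7, the other 7 being of a comparison with 0 of either. The 7 that turned lie in the Suv39h clones and in Suv39h WT against Setdb1 WT. The A share rested on the removed chromosome mean: with it added the share was 37.2%, 27.7%, 45.7% and 44.7% in the Setdb1 libraries (WT, WT + UNC, KO and KO + UNC) and 31.9%, 29.8%, 22.3% and 24.5% in the Suv39h libraries (WT, WT + UNC, DKO and DKO + UNC). Subtracting it gave 3.19% in Setdb1 WT + UNC, 19.1% in both SETDB1 knockout libraries, 4.26% in Suv39h WT and WT + UNC and 3.19% in Suv39h DKO + UNC. Both knockout libraries stayed above the other 6 when it was added. At a difference of 0.02 instead of 0.01, counts of bins up and down are given with those over all 23972 bins in brackets. They were 0 and 3 (30 and 107) for UNC0642 in Setdb1 WT and 11 and 0 (321 and 94) for SETDB1 loss under UNC0642. For Suv39h WT against Setdb1 WT they were 0 and 3 (114 and 171). They were 0 up (4) for Setdb1 KO, 0 up and 1 down (10 and 13) for UNC0642 in Suv39h WT and 0 up (25) for Suv39h DKO. For SUV39H1/2 loss under UNC0642 they were 0 and 0 (13 and 36), and for UNC0642 in Suv39h DKO 2 and 0 (28 and 42). Less the flanks, 4 bins were lower for UNC0642 in Setdb1 WT, 1 in Setdb1 KO and 11 in Suv39h DKO, 2 were higher for SUV39H1/2 loss under UNC0642, and 8 were higher and 5 lower for Suv39h WT against Setdb1 WT. After quantile normalization 2 bins were lower in Setdb1 KO, 1 lower for UNC0642 in Setdb1 KO and 2 higher for UNC0642 in Suv39h DKO. With the mean added 3 bins were lower for SUV39H1/2 loss under UNC0642 and 3 for UNC0642 in Suv39h DKO, and 12 for the latter with it subtracted. Bins higher in both SETDB1 pairs numbered 4 when Setdb1 WT served for both knockouts, 0 at 0.02 and 4 less the flanks. Switches with the mean added were 5 into A for UNC0642 in Setdb1 WT, 3 into B for Setdb1 KO, 2 into B for SETDB1 loss under UNC0642 and 7 into A for Suv39h WT against Setdb1 WT, the last 0 with it subtracted. Where the control score had to be at least 0.005 from 0 they were 6 into B for UNC0642 in Setdb1 WT, 2 into A and 0 into B for Setdb1 KO, and 0 into A and 4 into B for Suv39h WT. The causes were not tested.

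Of 16 alternatives of the limma fits, 15 called 0 Vmn1r bins, and 2 were called for line without Setdb1 WT + UNC. The lowest adjusted p ranged from 0.508 to 1.00 for UNC0642, including each background pair left out in turn (0 calls each), from 0.285 to 0.352 for SUV39H1/2 and from 0.0451 to 0.126 for line. The bins with mostly unique 32-mers and the fits without Setdb1 WT + UNC were chosen after seeing the data. Each group has 1 library, so replicate numbers could not be used for pairing. The pairing in the UNC0642 fit is by background, and without that block it called 0 bins as well (lowest adjusted p 1.00).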
